A study of Drosophila melanogaster with 3 samples.

Results

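The vacuolar ATPase (V-ATPase) genes were examined for recovery of the protein Dad in fly embryos. Members were the protein-coding genes whose symbol begins with Vha, which gave 33 of the 13945 protein-coding genes on the 6 chromosome arms. Dad, an inhibitory Smad, dampens signalling by BMP ligands such as Dpp. Whole Drosophila melanogaster embryos aged 0 to 24 h, males and females together, came from a transgenic line that makes Dad with GFP at its C terminus, and chromatin sheared to 200 to 800 bp was precipitated with an anti-GFP antibody in 3 biological replicates. All 3 replicates carry the tagged transgene and form 1 group, so there is no contrast between conditions, and the replicates give the spread. Each replicate has a list of 30000 regions, as do the pooled reads, and 3392 optimal peaks passed the authors' test of reproducibility. Ranks below count from the highest signal down within a list. Because whole embryos were used, a strong signal in few cells and a weak signal in many cells cannot be told apart.

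The V-ATPase is a rotary pump that uses ATP to move protons into lysosomes, endosomes and secretory vesicles, and across the plasma membrane of some epithelia. Its V1 sector (subunits A to H) hydrolyses ATP in the cytosol, and its membrane sector V0 (subunits a, c, c'', d and e) carries the protons. In Drosophila many subunits are encoded by several paralogs, of which 1 is typically used across tissues while others are restricted, often to the testis. The transcription factor Mitf, the fly member of the MITF/TFEB family, binds E-box sites and is known to activate V-ATPase genes.

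An optimal peak had its summit within 500 bp of a transcription start site (TSS) at 9 of the 33 genes (27.3%, Wilson 95% interval 15.1 to 44.2, which covers counting error only). Over all protein-coding genes this share was 18.4%, which lies inside that interval. The 9 genes were Vha55, Vha44, Vha36-1, Vha13 and Vha68-1 of V1, and Vha100-2, Vha16-1, Vha16-5 and VhaM9.7-c of V0. In the V1 sector 5 of 13 genes had such a peak, in V0 4 of 18, and neither of the 2 genes for the accessory subunit Ac45. A top region, meaning 1 of a replicate's 3392 regions with the most signal, lay at 8 members in all 3 replicates (24.2%, interval 12.8 to 41.0), against 10.9% of all protein-coding genes, which lies below that interval. Neither count was tested, because the members were chosen with earlier results of these data known.

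Sequence next to the summit is shown for genes that the paralog comparisons turn on (Vha68-1, Vha68-2 and Vha16-5) and for Vha55 and Vha13, each the only gene for its V1 subunit. Each is 150 bases of the gene's own strand, 5′ to 3′, read from the RefSeq sequence of Release 6 (the dm6 assembly) and kept outside annotated untranslated regions. Capitals mark the summit base and up to 5 bases on either side of it. The stretches of Vha55 (chr3R:12627830-12627979), Vha13 (chr3R:19644387-19644536) and Vha68-1 (chr2L:13004108-13004257) are from the minus strand and end at the base before the start site. So does that of Vha68-2 (chr2L:12974172-12974321), from the plus strand, whose summit is that of a pooled region that is not an optimal peak. The stretch of Vha16-5 (chr2L:10737195-10737344), from the minus strand, ends 152 bases before its start site and begins where the summit lies beside the start of the neighbouring gene CG12299.
Vha55: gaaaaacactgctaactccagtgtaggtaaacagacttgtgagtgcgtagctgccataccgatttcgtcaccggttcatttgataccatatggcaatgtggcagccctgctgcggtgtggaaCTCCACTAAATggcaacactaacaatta
Vha13: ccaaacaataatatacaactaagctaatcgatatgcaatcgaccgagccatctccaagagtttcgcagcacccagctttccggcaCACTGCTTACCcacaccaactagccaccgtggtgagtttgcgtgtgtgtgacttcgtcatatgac
Vha68-1: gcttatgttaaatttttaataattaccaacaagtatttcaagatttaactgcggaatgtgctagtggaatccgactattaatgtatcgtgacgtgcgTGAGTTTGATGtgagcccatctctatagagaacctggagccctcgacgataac
Vha68-2: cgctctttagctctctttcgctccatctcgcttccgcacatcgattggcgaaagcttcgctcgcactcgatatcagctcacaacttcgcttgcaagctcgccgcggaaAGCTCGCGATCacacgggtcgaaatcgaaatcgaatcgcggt
Vha16-5: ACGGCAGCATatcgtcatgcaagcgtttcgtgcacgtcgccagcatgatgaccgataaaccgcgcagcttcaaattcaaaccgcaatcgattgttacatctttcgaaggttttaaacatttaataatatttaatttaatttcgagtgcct
GC content was 46.7% in the Vha55 stretch, 48.7% in that of Vha13, 39.3% at Vha68-1, 55.3% at Vha68-2 and 40.7% at Vha16-5.

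The genes for subunit A, which carries the catalytic site, differed in which paralog had a peak. Vha68-1 (FBgn0265262) had an optimal peak (2L, 13003950 to 13004359) with a signal of 153.6, rank 1099, and a summit 48 bp upstream of its TSS. Signal is the authors' value for a region and is not scaled between libraries, so replicate values are given below after division by the replicate's median over regions that overlap optimal peaks (relative signal). The region of highest signal within 500 bp of a TSS was taken in each replicate, so its place can differ between replicates. For Vha68-1 the relative signal was 1.68, 1.52 and 1.11 in replicates 1, 2 and 3. Vha68-2, the paralog listed as widely used, had no optimal peak but a pooled region with a signal of 49.9 (rank 7318 of 30000), whose summit was 37 bp from a TSS. Its relative signals were 0.608, 0.681 and 0.533, all below the lowest value of Vha68-1. The log2 ratio of Vha68-1 to Vha68-2 was 1.23 ± 0.21 (SD, n = 3), or 2.35-fold, and it was positive in 3 of 3 replicates (exact sign-flip permutation test, two-sided, p = 0.25, adjusted over 4 paralog pairs 0.333). With 3 replicates 0.25 is the smallest p this test can give, so no pair could reach a conventional threshold. Vha68-3, which lies just downstream of Vha68-2, had no pooled region at its TSS, and its single replicate region (replicate 3) ranked 21845.

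Vha55 (FBgn0005671), the only gene for the B subunit, carried the highest signal of the V1 genes. Its optimal peak (3R, 12627757 to 12627917) had a signal of 255.8, rank 387, and its summit lay 23 bp upstream of the TSS. Relative signals of 2.99, 2.34 and 1.64 were measured, which average 2.32 ± 0.68 (SD, n = 3), with replicate 1 highest. The same summit was 179 bp from the TSS of Snx3, a sorting nexin gene transcribed in the other direction.

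The stalk and rotor subunits of V1 ranged from strong peaks to no region. Vha36-1 (FBgn0022097), 1 of 3 genes for rotor subunit D, had a peak (2R, 15541318 to 15541458) with a signal of 202.3, rank 657, and relative signals of 2.43, 1.52 and 1.44. Its paralog Vha36-2 had a pooled signal of 26.7 (rank 22116) and a region in replicate 1 alone, and Vha36-3 had no region at its TSS in any list. Vha44 (FBgn0287825), the gene for subunit C, had a peak (2R, 16336516 to 16336925) with a signal of 122.4, rank 1683, and relative signals of 1.28, 0.892 and 1.03. Vha13 (FBgn0283536), for subunit G, had the weakest peak of the 9 (3R, 19644241 to 19644650, signal 102, rank 2296), yet its relative signals of 1.05, 0.968 and 0.929 were the closest together. Vha26, the gene for subunit E, had no optimal peak, and its relative signals were 0.611, 0.697 and 0.814. These came from regions 229, 472 and 235 bp from the TSS in replicates 1, 2 and 3, so not from 1 place. With the window narrowed to 250 bp, the mean relative signal was 0.621 in place of 0.707. The pooled signal of Vha26 was 62.7, rank 5053. VhaSFD, for subunit H, had a pooled signal of 44.5 (rank 8894), no region in replicate 1, and relative signals of 0.404 and 0.685 in replicates 2 and 3. Subunit F was without any region at a TSS, since neither Vha14-1 nor Vha14-2 had one in any list. An optimal peak with a signal of 212.4 (2R, 15679063 to 15679472) lay 816 bp from the TSS of Vha14-1, 158 bp beyond the 3′ end of that gene and 312 bp from the TSS of Gmppa.

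Among the 5 genes for subunit a, the large membrane subunit of V0, the peak was at Vha100-2 and at no other. Vha100-2 (FBgn0028670) had the highest signal of all members (3R, 18397125 to 18397332, signal 325.4, rank 220). Its relative signals were 2.11, 3.38 and 3.43, a mean of 2.97 ± 0.75 (SD, n = 3), with replicate 1 lowest. Vha100-2 has 2 annotated TSSs, and the peak was counted for the gene through the inner one. The summit lay 326 bp upstream of that site, inside the gene, in a 5′ UTR of Vti1b. Vti1b is a SNARE gene on the other strand, and its TSS was the nearer, 259 bp from the summit. A weaker pooled region (signal 64.5) lay nearer to the outer TSS. With the window narrowed to 250 bp, the relative signal of Vha100-2 was 0.775. Vha100-1, the neuronal isoform, had regions in replicates 2 and 3 (relative signals 0.408 and 0.358) and none in the pooled list. Vha100-5 had a pooled signal of 23.7 (rank 26915) and a region in replicate 1, and Vha100-3 and Vha100-4 had none in any list. Vha100-4 is the gene next to Vha100-2, and the nearest optimal peak to its TSS was that same peak, 7449 bp away.

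Subunit c, which forms the rotating proteolipid ring, was the one with a peak at 2 paralogs. At Vha16-1 (FBgn0262736), the widely used gene, the peak (2R, 6632947 to 6633356) had a signal of 145.2, rank 1239, and relative signals of 1.08, 1.63 and 1.35. At Vha16-5 (FBgn0032294) the peak (2L, 10737211 to 10737430) had a signal of 321.2, rank 226, and relative signals of 2.76, 2.57 and 3.21. Vha16-5 was higher in 3 of 3 replicates, with a log2 ratio to Vha16-1 of 1.09 ± 0.38 (SD, n = 3; exact sign-flip permutation test, two-sided, p = 0.25, adjusted 0.333). The summit of the Vha16-5 peak lay 297 bp from its TSS and 5 bp from that of CG12299, whereas the summit at Vha16-1 was 62 bp from its TSS and had no other gene's TSS within 500 bp. Vha16-2 and Vha16-3, which are neighbours, had no region in any list, and Vha16-4 had 1 weak region in replicate 3 (rank 25721). Vha16-1 also had an intronic peak 1648 bp from its nearest TSS (2R, 6630531 to 6630940, signal 86.6).

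The small subunit e was represented by VhaM9.7-c (FBgn0028664; 3L, 4186656 to 4187065, signal 102.4, rank 2267), with its summit 4 bp inside the transcript. Its relative signals were 1.04, 1.21 and 0.466, and in replicate 3 its rank was 7914, below the top 3392. VhaM9.7-b, the paralog listed as widely used, had relative signals of 0.543, 1.08 and 0.445 and a pooled signal of 55.9, so the ranges of these paralogs overlapped, although VhaM9.7-c was the higher in 3 of 3 replicates. The log2 ratio of VhaM9.7-c to VhaM9.7-b, the 2 strongest of the 3 paralogs with a region in every replicate, was 0.39 ± 0.47 (SD, n = 3; exact sign-flip permutation test, p = 0.25, adjusted 0.333), a mean smaller than its SD. The VhaM9.7-b regions lay 356, 410 and 16 bp from its TSS in replicates 1, 2 and 3, so the ratio does not compare the same place in each. The pooled summit was 373 bp upstream of that TSS, and COX8, on the other strand, begins 415 bp upstream of it. VhaM9.7-a had a pooled signal of 38.8, and VhaM9.7-d had no region in any list.

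For subunits c'' and d no gene had an optimal peak. VhaPPA1-1 (subunit c'') came nearest among all members without one, with a pooled signal of 70.9 (rank 4212), where the lowest optimal peak of the whole list had 80.7. Its relative signals were 0.642, 1.00 and 0.497, while its neighbour VhaPPA1-2 had a pooled signal of 35.1 and no region in replicate 1. VhaAC39-1 and VhaAC39-2 (subunit d) had pooled signals of 38.9 and 34.9. Their log2 ratio was 0.20 ± 0.35 (SD, n = 3; exact sign-flip permutation test, p = 0.5, adjusted 0.5) and its sign differed between replicates. The VhaAC39-1 regions lay 27, 14 and 220 bp from its TSS in replicates 1, 2 and 3. VhaAC45 had relative signals of 0.288, 0.727 and 0.452, from regions 23, 134 and 403 bp from its TSS. VhaAC45RP had a region in replicate 1 alone.

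**Figure D1:**
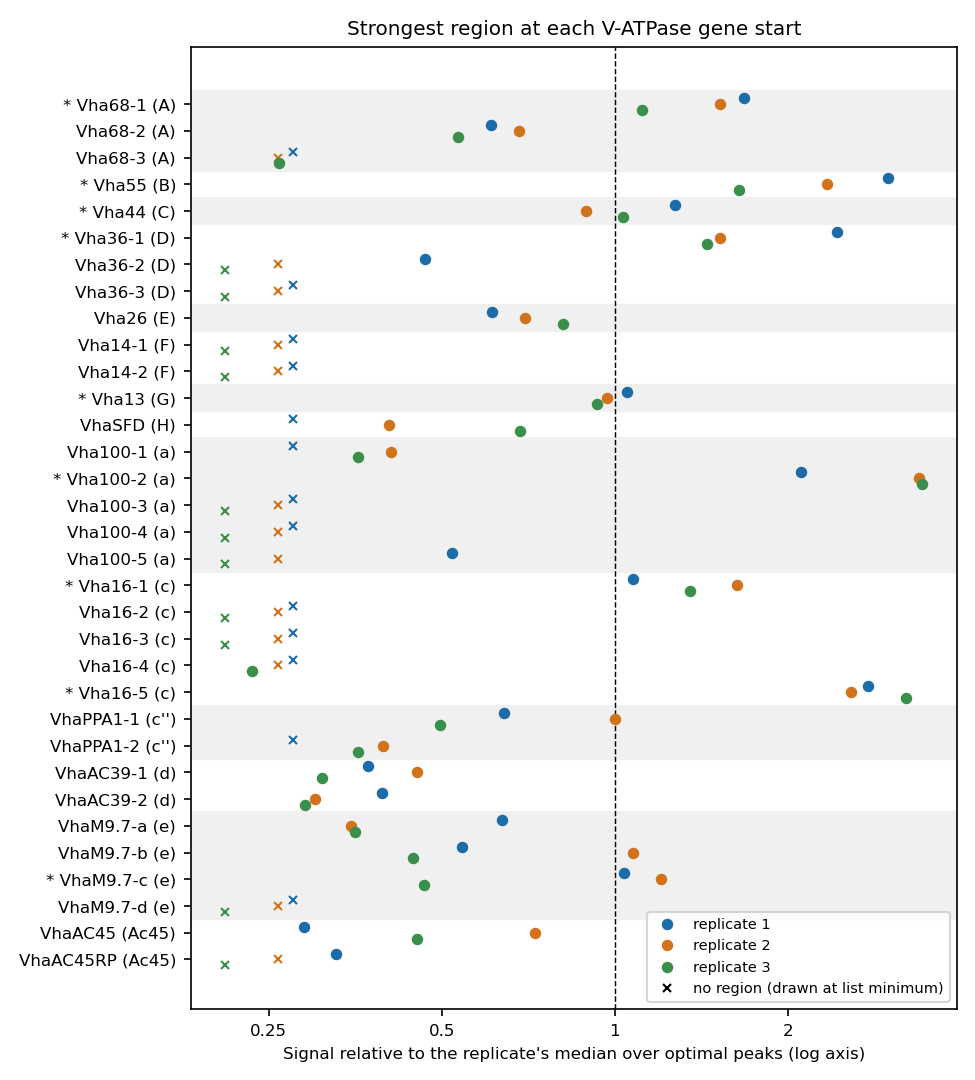
Relative signal (log axis, replicate median over optimal peaks = 1) of the strongest region within 500 bp of a TSS for each of the 33 genes, grouped by subunit, which is in parentheses after the symbol, with 1 point per replicate. An asterisk marks the 9 genes with an optimal peak, and a cross at the list minimum marks a replicate without a region; the highest points are those of Vha100-2, Vha16-5 and Vha55.

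Across the 9 subunits encoded by more than 1 gene, 4 had an optimal peak at 1 paralog, 1 (subunit c) at 2 paralogs and 4 at none. Of the 5 subunits with a single gene, 3 had a peak (Vha55, Vha44 and Vha13). By isoform, 6 of the 14 genes listed as the widely used form of their subunit had an optimal peak (42.9%, Wilson interval 21.4 to 67.4), and 3 of the 19 others (15.8%, 5.52 to 37.6). The 18.4% of all protein-coding genes lies below the first interval and inside the second, and the 2 intervals overlap. These intervals cover counting error only, and neither count was tested. Counting the nearest coding TSS alone gave 3 of the 14 (21.4%, interval 7.57 to 47.6). That interval covers the 13.5% of all protein-coding genes under the same rule. The list of widely used genes was drawn from general knowledge, with earlier results of these data known, and was not checked against expression here. With Vha68-1 and VhaM9.7-c listed for subunits A and e in place of Vha68-2 and VhaM9.7-b, the counts were 8 of 14 and 1 of 19, an alternative chosen after seeing the data. At the level of any pooled region, 13 of the 14 widely used genes had one (92.9%, interval 68.5 to 98.7), Vha14-1 being the exception, and 8 of the 19 others (42.1%, 23.1 to 63.7), against 55.8% of all protein-coding genes.

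**Figure D2:**
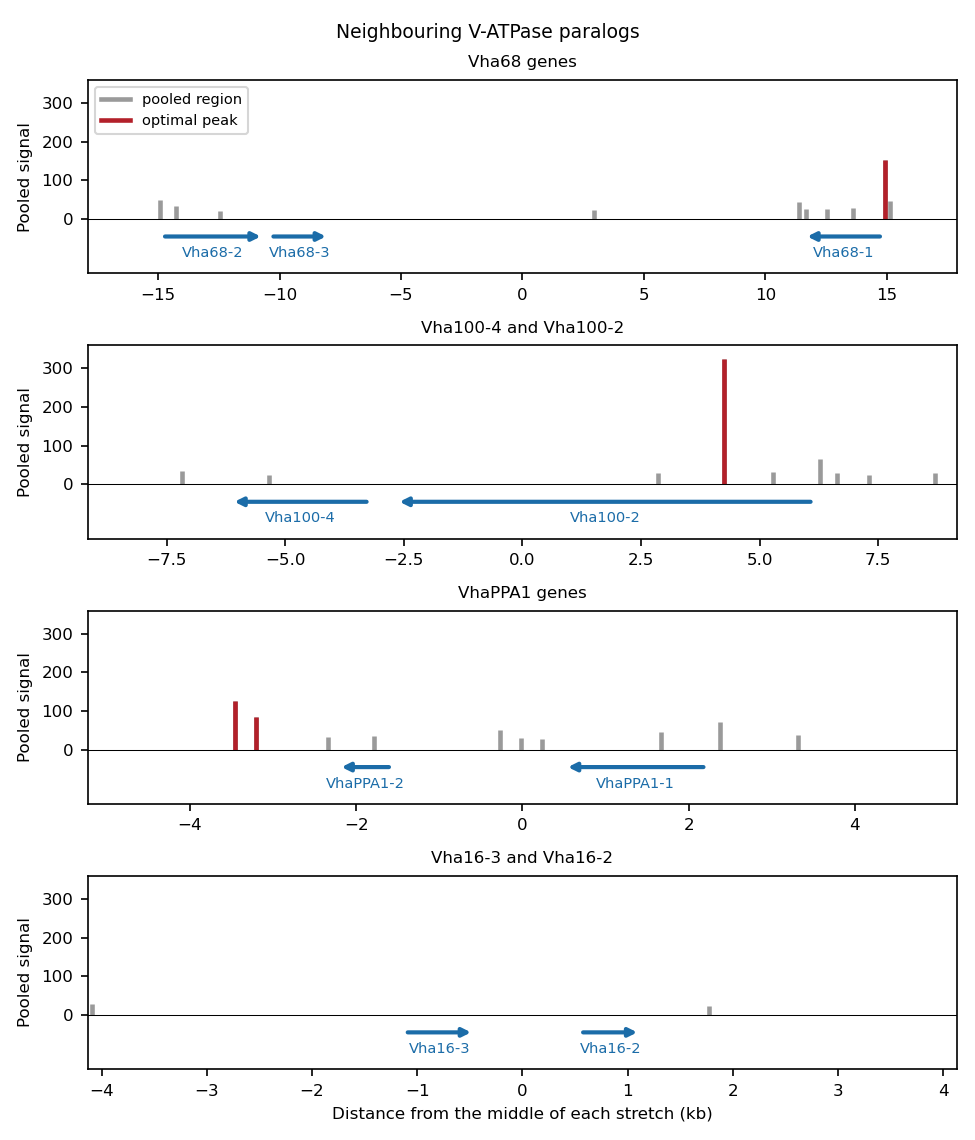
Pooled regions (grey bars, height = pooled signal) and optimal peaks (red bars) along 4 stretches that hold neighbouring paralogs, in kb from the middle of each stretch, with genes as arrows in the direction of transcription. The red bars at a member's TSS are those at Vha68-1 (153.6) and at the inner TSS of Vha100-2 (325.4), while the VhaPPA1 and the Vha16-3 and Vha16-2 stretches have none there.

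Below the optimal list, 21 of the 33 genes had a pooled region at a TSS (63.6%), against 55.8% of all protein-coding genes, and 17 (51.5%) had a region in every replicate, against 39.3%. The median pooled signal of those 21 was 62.7, close to the 56.3 over all protein-coding genes with a region. The 9 members with an optimal peak had a median signal of 153.6, against 128.5 over all protein-coding genes with one. The 24 remaining members comprised 16 with a region in some list and 8 with none (Vha100-3, Vha100-4, Vha14-1, Vha14-2, Vha16-2, Vha16-3, Vha36-3 and VhaM9.7-d). The share of all protein-coding genes without a region in any list was not counted. Whether 8 of 33 is many or few therefore cannot be said. The lists stop at a signal of 10.5, 7.83 and 8.93 in replicates 1, 2 and 3. A gene without a region therefore had no listed summit within 500 bp of a TSS, and what signal it had is not known.

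**Figure D3:**
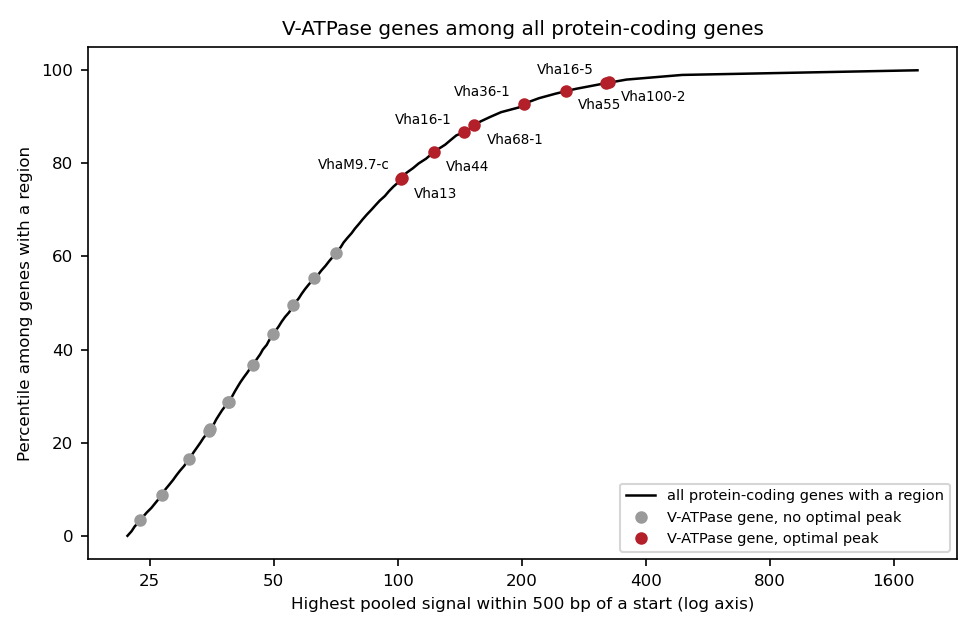
Percentile of the highest pooled signal within 500 bp of a TSS (log axis) among the 7783 protein-coding genes that have a pooled region (black line), with the 21 V-ATPase genes as points. The 9 genes with an optimal peak (red) lie from 102 to 325.4, and the others (grey) from 23.7 to 70.9.

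The position of the 9 peaks was compared with that at all 2562 protein-coding genes with an optimal peak. In 7 of the 9 the summit was within 100 bp of the member's TSS (77.8%, Wilson interval 45.3 to 93.7), against 46.6% of all these genes, a share inside the interval. In 8 of the 9 (88.9%) it was upstream of the TSS, against 85.8%. The summit was intergenic in 6 and in a 5′ UTR in 3 (of Vti1b at Vha100-2, of Hmgs at Vha44 and of VhaM9.7-c itself). The matching shares over all 2562 genes were not counted, so these places are a description only. At 6 of the 9 genes the TSS of another protein-coding gene was also within 500 bp of the summit (66.7%, against 57.6%): Vti1b at Vha100-2, CG12299 at Vha16-5, CG8187 at Vha36-1, Hmgs (HMG-CoA synthase) at Vha44, Snx3 at Vha55 and mTor, the kinase of the TOR pathway, at Vha68-1. In 4 of the 9 the other TSS was the nearer (44.4%, interval 18.9 to 73.3, against 28.1%): 259 bp against 326 bp at Vha100-2, 5 bp against 297 bp at Vha16-5, 35 bp against 37 bp at Vha36-1 and 39 bp against 84 bp at Vha44. When each summit was counted for the nearest coding TSS alone, 5 of 33 members had a peak (15.2%), against 13.5% of all protein-coding genes. Those 5 were Vha13, Vha16-1, Vha55, Vha68-1 and VhaM9.7-c.

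Peaks were also counted by gene arrangement. A protein-coding gene on the other strand began within 1000 bp upstream of the TSS (head to head) for 14 of the 33 members. Of these 14, 7 had an optimal peak (50%), against 32.9% of all head-to-head protein-coding genes. Of the 19 other members 2 had one (10.5%), against 10.1% of all such genes. The 7 head-to-head members without a peak were Vha100-1, Vha14-1, Vha26, Vha36-3, VhaAC45, VhaM9.7-a and VhaM9.7-b. The 2 members with a peak but no such neighbour were Vha16-1 and VhaM9.7-c.

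**Figure D4:**
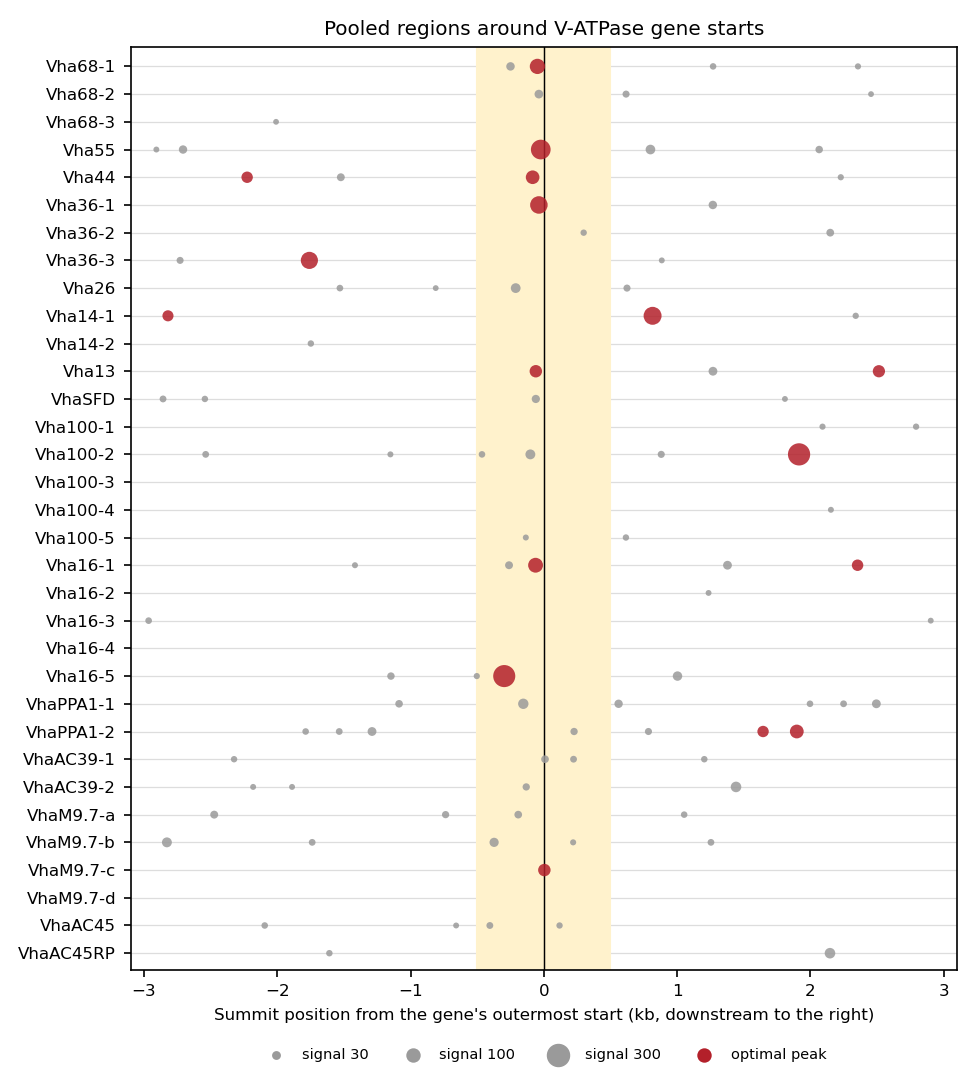
Summit positions of pooled regions within 3 kb of the outermost TSS of each gene (x axis, kb, downstream to the right; shaded band, 500 bp on either side), with point area in proportion to pooled signal and optimal peaks in red. The red points within the band are those of Vha68-1, Vha55, Vha44, Vha36-1, Vha13, Vha16-1, Vha16-5 and VhaM9.7-c, whereas the peak of Vha100-2 lies downstream of its outermost TSS, beside the inner one.

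Counting any optimal peak in the gene or within 5 kb of it gave 15 of the 33 members (45.5%), against 43.4% of all protein-coding genes. The 6 members added were Vha14-1, Vha36-3, VhaM9.7-a, VhaPPA1-1, VhaPPA1-2 and VhaSFD, and every one of the added peaks was outside the member. Near VhaSFD they were at Cyt-c-p (signals 174 and 122.7), which encodes cytochrome c, and upstream of VhaM9.7-a at CG1309 (204.4). Inside the bounds of a member there were 3 optimal peaks, at Vha100-2, Vha16-1 and VhaM9.7-c.

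Short sequence motifs were looked for around the summits and in the promoters. The E-box CACGTG, of the kind that Mitf binds, was within 100 bp of the summit at 2 of the 9 peaks, at Vha44 and at Vha55, where it began 37 bp and 79 bp downstream of the summit on the member's strand. Among all optimal peaks 2.89% held it. The match at Vha55 lies beyond the promoter window used below. The longer form TCACGTGA, which contains CACGTG, was at Vha44 alone, against 0.177% of all optimal peaks. In promoters, taken as 250 bases before the outermost TSS and 50 bases from it, CACGTG was found in 3 of the 33 members (Vha44, VhaAC45RP and VhaM9.7-d; 9.09%) and in 4.2% of all protein-coding genes. Matches were taken on both strands, and a match is a description of the sequence, not evidence of a bound site. The core promoter sequences TATAAA (17 of 33 members, 51.5%, against 45.8%) and GGTCACAC (4 of 33, 12.1%, against 7.7%) and the repeat GAGAG (9 of 33, 27.3%, against 29.7%) were found at shares near those of all promoters. GCCGNCG, a GC-rich form bound by Mad, a DNA-binding Smad of the BMP pathway, was in 1 member promoter (that of Vha14-2, 3.03%, against 10.1%). This form was in 0 of the 9 summit windows, against 5.07% of all optimal peaks. The E-box CAGCTG was in 8 of 33 promoters (24.2%, against 17.7%). TATCGATA, the DRE sequence, was in 2 promoters (Vha55 and VhaSFD; 6.06%, against 9.36%). Within 100 bp of the summit, CAGCTG was at 2 of the 9 peaks (22.2%, against 11.4% of all optimal peaks). GAGAG was at 2 (22.2%, against 24.7%), TATAAA at 1 (11.1%, against 28%), and TATCGATA and GGTCACAC at 0 (against 6.49% and 3.6%). In promoters of the 9 members with a peak, CACGTG was in 1 (11.1%, against 5.27% of all protein-coding genes with a peak). In those same promoters TATAAA was in 6 (66.7%, against 42.5%), GAGAG in 3 (33.3%, against 28.8%) and CAGCTG in 2 (22.2%, against 23%). TATCGATA was in 1 (11.1%, against 16.3%), and GGTCACAC and GCCGNCG were in 0 (against 11.2% and 9.48%). Median GC content within 100 bp of the summit was 44.8% at the 9 peaks (range 36.3 to 52.7%) and 37.8% over all optimal peaks (18.9 to 67.2%). The optimal peaks include some away from any TSS, so these sets are unlike. In promoters the median was 36.7% for the 33 members and 38% for all protein-coding genes. For genes with a peak it was 40.3% for the 9 members and 37.7% for all protein-coding genes.

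Other genes of the lysosome and of V-ATPase assembly and sensing were examined as a list of 25, of which 7 had an optimal peak at a TSS (28.0%, Wilson interval 14.3 to 47.6; 18.4% of all protein-coding genes). They comprised 3 genes of the Lamtor (Ragulator) complex, which links the pump to TOR signalling: Lamtor3 (signal 223.8, relative signal 1.91 ± 0.64, n = 3), Lamtor4 (91.4) and Lamtor5 (88.7). The lysosomal protease genes CtsL1 (155.6, relative signal 1.5 ± 0.17, n = 3), CtsB (109) and CtsF (81.3) and the lysosomal efflux gene spin (83.2) made up the rest. Of the 7, Lamtor3 and CtsL1 were above the median signal of the optimal peaks (121.7). A top region in all 3 replicates was found at 3 of the 25 (12%, against 10.9% of all protein-coding genes). On that same criterion, leaving out replicates 1, 2 and 3 in turn gave 3, 4 and 3 genes. Mitf, named here for its known role although it had no optimal peak, had a pooled signal of 24.8 (rank 24999) at its TSS.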

How the data were processed

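Data from 3 biological replicates of anti-GFP chromatin immunoprecipitation were used. The authors deposited 30000 regions per replicate and for the pooled reads as input to IDR (irreproducible discovery rate), per the file listings, with the control not analysed here, and the optimal peaks that passed it. The sources used here do not give the aligner, the caller or the threshold. The deposited signal column is the caller's value per region and is not scaled between libraries. The deposited −log10 q column reached a ceiling (3.87 in the optimal list), so regions were ranked by signal. Read depth is unknown, so no precision can be derived from it. The dm3 lists were not used here.

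From these values, dm6 summits were joined to TSSs of protein-coding genes (Ensembl release 115), with the region of highest signal within 500 bp taken for each gene. A summit that fell beyond its region (3 pooled, 3 optimal) was moved back to the final base. The join was tested on simulated summits (200 of 200 planted assignments recovered over 13945 genes). Replicate medians over regions overlapping optimal peaks by at least 1 bp were 38.2, 30.2 and 42.5. Gene lists and members were chosen with earlier results of these data known. All members were named. Python 3.11.15, numpy 2.4.6, pandas 2.3.3, scipy 1.17.1 and matplotlib 3.10.9 were used. Alternatives were other windows, outermost TSSs only, nearest TSS only, overlap in place of summits, peaks above the median signal, another scaling, leaving out each replicate, and, chosen after seeing the data, other widely used genes for subunits A and e.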

Additional observations from a re-analysis of the deposited data

How the results depend on the processing

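Most counts were within 1.5 times their reported value under the alternatives. Counting a summit for the nearest coding TSS alone gave 5 members with an optimal peak in place of 9 (13.5% of all protein-coding genes in place of 18.4%). It gave 4 in place of 8 with a top region in all 3 replicates (7.02% of all protein-coding genes in place of 10.9%). Among the widely used isoforms it gave 3 with an optimal peak in place of 6. This rule removes genes by construction where another TSS is nearer. Under it the median pooled signal of members with a pooled region was 44.5, below the 50.8 over all protein-coding genes with one. Without the rule it was 62.7, above 56.3. Taking all 30000 regions of each replicate in place of the top 3392 gave 17 members with a region in every replicate in place of 8. The share of all protein-coding genes rose to 39.3% from 10.9%. For the 25 lysosome and assembly genes, peaks above the median signal gave 2 in place of 7 (9.92% of all protein-coding genes in place of 18.4%). For the 33 members the same peaks gave 7 in place of 9. The nearest coding TSS alone left the lysosome and assembly count at 7, against 13.5% of all protein-coding genes. IDR was not rerun here, so leaving 1 replicate out meant counting top regions shared by the other replicates: 3 to 4 of the 25 had one, beside 3 with a top region in all 3 replicates, so the lower count came with the change of criterion. By that criterion 8 to 9 members had a region at a TSS, against 12.4 to 13.6% of all protein-coding genes. Exchanging the widely used gene of subunits A and e, chosen after seeing the data, gave 8 widely used genes with a peak in place of 6, and 1 other gene in place of 3. Windows of 250 and 1000 bp gave 7 and 10 members, against 15.3% and 21.0% of all protein-coding genes. The outermost TSS alone gave 8, without Vha100-2, against 16.6% of all protein-coding genes. The means of all 4 paralog log2 ratios kept their direction in every alternative that gave a value, although that of VhaAC39-1 to VhaAC39-2 was 0.0095 without replicate 2. With 1000 bp that of VhaM9.7-c to VhaM9.7-b was 0.278 (exact sign-flip permutation test, two-sided, p = 0.75), so its replicates no longer shared 1 sign. With 250 bp, no ratio could be had for subunits c and e. Dividing by the median of all regions rescales every relative signal and changes no ratio. No paired analysis was possible because there is 1 group. Each replicate list and the pooled list end at 30000 regions, which sets their lowest signal. What read depth limits cannot be given, since depth is unknown.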
